A study of Mus musculus with 16 samples.

Results

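Liver RNA of female mice that carry a hepatocyte-specific deletion in Rxra was compared with that of wild-type females, in 10 of the 16 arrays of the series. The 5 knockout (KO) livers have the genotype hs-RXRa-Dex4-/- and the labels KO 6 to KO 10, and the 5 Wild-type (WT) livers are WT 1 to WT 5. All animals were 2 months old, none is described as treated, and the groups differ by the deletion alone as far as the labels say. The other 6 arrays, 3 WT and 3 KO livers of males of that age, took part in the estimate of the spread and are set beside the female values below. Every gene with a probe detected on at least 3 of the 16 arrays was tested, 9906 genes in all. Each array held RNA of 1 liver sample, with no pooling stated. The deletion is confined to hepatocytes by its name, so the other cells of the liver keep the gene, and the driver of the recombinase and the genetic background are not given in the sources used here. Where a transcript was lower in whole liver, fewer cells of a type and less RNA per cell cannot be told apart.

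RXRα is a nuclear receptor that pairs with other receptors and binds DNA with them. Its partners in liver include PPARα, which switches on fatty acid oxidation, the thyroid hormone receptors, LXR and FXR, which sense sterols and bile acids, CAR and PXR, which sense foreign compounds, and the retinoic acid receptors. Their sites on DNA are pairs of a short half-site, AGGTCA, whose spacing favours one partner or another. Many of the enzymes that these pairs control also differ between male and female mouse liver, where the pituitary rhythm of growth hormone sets much of the difference.

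Values below are intensities of Illumina bead arrays on a linear scale. A gene was counted as detected on an array above an intensity of about 21, and between 8424 and 8741 genes were detected per array. Differences are KO minus WT on the scale log2(intensity + 16), given ± the standard error of the limma fit with n = 5 per group, and p-values were adjusted over the 9906 genes. Folds are on the same scale, which understates the change of dim genes. Female WT 4 correlated least with its own group (mean r = 0.952), followed by WT 2 (0.961) and KO 9 (0.967). The sex labels fit the data. Xist, which coats the inactive X chromosome of females, was detected on all 10 female and on 0 of the 6 male arrays. Hepatocyte markers were bright on every female array and summed to between 168200 and 192300 in WT and between 185400 and 194500 in KO.

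The probe for Rxra did not differ. Its intensity was 59.7, 64.4, 52.6, 106 and 66.2 in WT 1 to 5 and 88.6, 101, 74.9, 54.2 and 81.7 in KO 6 to 10 (log2 difference 0.17 ± 0.19, adjusted p = 0.817), and the groups overlapped. Where this probe lies relative to the deleted exon is not given, so its level is no check of the genotype labels. Rxrb, a second RXR gene of liver, differed by -0.04 on the log2 scale (adjusted p = 0.964) and Rxrg by -0.59 (adjusted p = 0.303).

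In the KO livers 128 genes were higher and 108 were lower at an adjusted p under 0.05, which is 1.29% and 1.09% of the genes tested and 2.38% together. In WT livers the median intensity was 566.6 for the lower genes, 161.2 for the higher genes and 160.8 for all genes. By the calls themselves, WT is the group in which lower genes are high and higher genes low. Part of this gap is therefore set by the selection. The median log2 difference was 0.91 among the higher genes and -1.02 among the lower genes, and 0.004 over all genes. A fold above 2 was reached by 51 of the higher and 56 of the lower genes, and a fold above 4 by 9 and 13. All 5 KO arrays lay above all 5 WT arrays for 212 genes (2.14%) and below them for 173 (1.75%), and 202 of the 236 called genes were among these. Of the lower genes 14 were detected on 0 KO arrays, 8 of them on all 5 WT arrays, while 10 of the higher genes were detected on 0 WT arrays, 2 of them on all 5 KO arrays. The counts depended on the arrays used. A fit on the 10 female arrays alone gave 73 higher and 64 lower genes, and without KO 6 or KO 7 the higher genes numbered 81 or 82. Without WT 4, the array least like its group, 109 genes were higher.

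**Figure D1:**
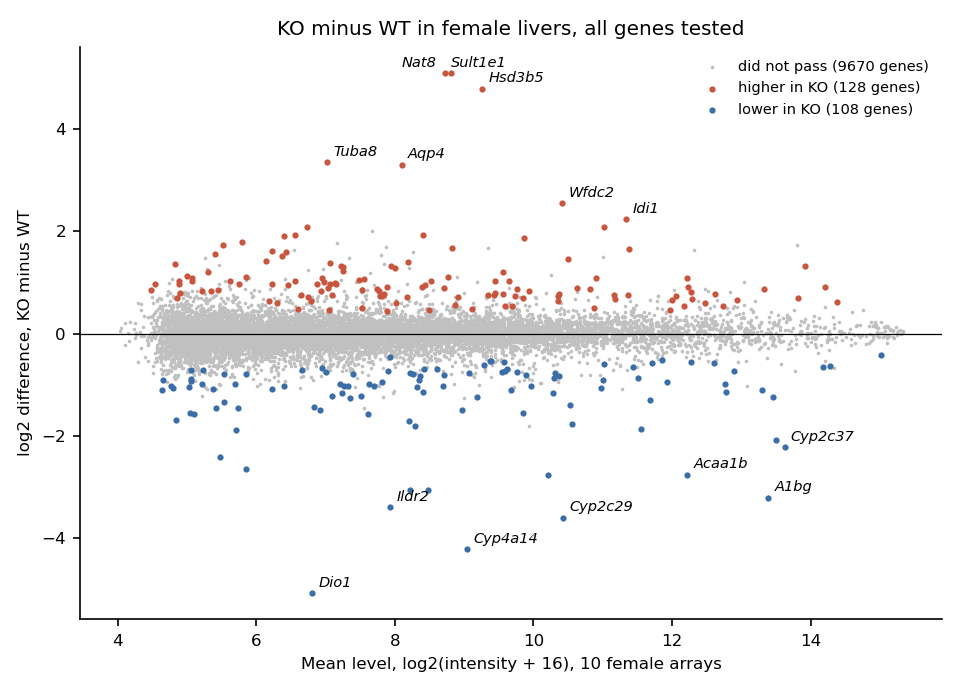
Mean level over the 10 female arrays, log2(intensity + 16), against the log2 difference KO minus WT for each of the 9906 genes tested, with the genes that passed in colour. The 128 higher and 108 lower genes lie on both sides of 0 over the whole range of levels, with the largest differences near 5 in either direction.

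The leading genes below have the 12 largest differences each way among called genes whose groups do not overlap. Their separation of KO from WT livers is therefore set by the choice and is no result. The largest fall was that of Dio1, the deiodinase that turns the prohormone thyroxine into active thyroid hormone. Its intensity was 2044, 509.6, 638, 643 and 231 in WT 1 to 5 and 2.08, 10.5, -5.07, -6.57 and 6.05 in KO 6 to 10. Every WT array was well above the detection level and none of the KO arrays reached it, so the fall was at least 30.0-fold (log2 difference -5.07 ± 0.43, adjusted p = 4.91e-06). Cyp4a14, which hydroxylates the end of fatty acids and is a classic PPARα target, read 5614, 1039, 733, 5605 and 2337 in WT 1 to 5 and 29.5, 149, 98.4, 84.8 and 302 in KO 6 to 10. The WT livers were spread widely, with WT 2 and WT 3 lowest, yet the lowest of them exceeded the highest KO liver (log2 difference -4.21 ± 0.70, adjusted p = 0.0031). Acaa1b, a thiolase of peroxisomal β-oxidation, was among the brightest of the lower genes with 14550.1, 7045, 9930.2, 16023 and 17581 in WT 1 to 5 and 1917, 1648, 1844, 2365 and 1438 in KO 6 to 10, a fall of 6.74-fold (log2 difference -2.75 ± 0.24, adjusted p = 7.31e-06).

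Cyp2c29, a drug- and retinoid-metabolizing P450 induced through CAR, fell 12.1-fold. It read 3851, 3895, 5811, 6767 and 4108 in WT 1 to 5 and 394, 228, 579, 383 and 389 in KO 6 to 10 (log2 difference -3.59 ± 0.35, adjusted p = 2.04e-05). Cyp2c37, a neighbour of the same family, read 27441, 22045, 28021, 35798 and 24461 in WT 1 to 5 and 6424, 4408, 6219.7, 6557 and 5893 in KO 6 to 10 (log2 difference -2.22 ± 0.30, adjusted p = 0.000602). In both genes every KO liver lay far below every WT liver, but the family is of near-identical sequence and a probe may read more than 1 member.

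Ildr2, a membrane protein linked to hepatic lipid levels in mice, read 841, 807, 465, 1331 and 666 in WT 1 to 5 and 54.2, 43.4, 75.2, 45.3 and 91.9 in KO 6 to 10 (log2 difference -3.38 ± 0.26, adjusted p = 2.89e-06). Mfsd2a, a transporter of lysophosphatidylcholine that carries docosahexaenoic acid, read 868, 767, 686, 3617 and 635 in WT 1 to 5 and 67.7, 140.01, 62.9, 106 and 215 in KO 6 to 10 (log2 difference -3.05 ± 0.43, adjusted p = 0.000981). WT 4 stood far above the other WT livers for Mfsd2a, and without it the difference was -2.60 with an adjusted p of 0.000374. Slc51b, the β subunit of the basolateral bile acid exporter, was detected in all WT and in 0 KO livers and was at least 3.95-fold lower, at 54.6, 222, 183, 48.9 and 36.04 in WT 1 to 5 and 6.75, -5.78, 0.32, 12.5 and -4.35 in KO 6 to 10 (log2 difference -2.40 ± 0.38, adjusted p = 0.00214). Rarres1, named for its induction by retinoids, read 1016, 807, 872, 778 and 763 in WT 1 to 5 and 143, 88.1, 102, 83.4 and 43.4 in KO 6 to 10 (log2 difference -3.06 ± 0.29, adjusted p = 1.46e-05). Its WT values lay within a narrow range and its KO values were far lower in every liver.

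A1bg and Hao2 are female-predominant in mouse liver. A1bg, a plasma glycoprotein, read 40369.9, 30135, 35239.9, 29015 and 29513 in WT 1 to 5 and 4360.5, 11871, 11468, 2474 and 356 in KO 6 to 10 (log2 difference -3.20 ± 0.68, adjusted p = 0.0181), and a second probe of it fell too (-3.76). The KO livers differed widely among themselves, from KO 10 to KO 7, but all were below every WT liver. The A1bg call was kept with any single array left out (highest adjusted p = 0.0479). It was lost in the fit on the 10 female arrays alone and in a fit without the detection filter. Hao2, a peroxisomal hydroxyacid oxidase, read 3402, 2958, 4204, 1976 and 3383 in WT 1 to 5 and 426, 161, 1722, 847 and 151 in KO 6 to 10 (log2 difference -2.77 ± 0.49, adjusted p = 0.0049), again with a wide spread among the KO livers. Arhgap26, a GTPase-activating protein, was at least 6.10-fold lower by its brightest probe (log2 difference -2.65 ± 0.25, adjusted p = 1.66e-05), while 2 other probes of the gene, with mean intensities of 19.3 and 22 at the detection level, gave no usable difference.

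Among the higher genes Nat8, an N-acetyltransferase best known from kidney and liver, stood first. It read 63.3, 77.7, 26.4, 88.4 and 66.97 in WT 1 to 5 and 3538, 2223, 1881, 4017 and 2066 in KO 6 to 10, a 34.2-fold rise (log2 difference 5.09 ± 0.26, adjusted p = 9.53e-09). No WT liver came near the lowest KO liver, KO 8. Sult1e1, the sulfotransferase that inactivates oestrogens, read 48.8, 92.1, 3.00, 402 and 19.5 in WT 1 to 5 and 4505, 3194, 637, 2484 and 3790.4 in KO 6 to 10 (log2 difference 5.09 ± 0.71, adjusted p = 0.000916). WT 4 was the highest WT liver and KO 8 the lowest KO liver, and they did not overlap. Hsd3b5, a steroid dehydrogenase of male mouse liver, read 589.8, 76.5, 211, 23.7 and 26.7 in WT 1 to 5 and 2964, 3671, 3311, 2499 and 3750.2 in KO 6 to 10 (log2 difference 4.79 ± 0.54, adjusted p = 0.000125), so that all KO livers exceeded all WT livers.

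Further large rises were seen in genes of varied function. Tuba8, an α-tubulin, read 24.2, 32.8, 20.02, 33.1 and 15.8 in WT 1 to 5 and 398, 571, 233, 755 and 251 in KO 6 to 10 (log2 difference 3.36 ± 0.28, adjusted p = 4.91e-06). Aqp4, a water channel known from brain astrocytes, read 53.2, 94.1, 46.97, 95.03 and 79.2 in WT 1 to 5 and 1076, 1303, 792, 582 and 663 in KO 6 to 10 (log2 difference 3.30 ± 0.28, adjusted p = 4.91e-06). Both genes were higher in every KO liver than in any WT liver. Wfdc2, a secreted protein with whey acidic protein domains, was higher at 462, 526, 587, 525 and 658 in WT 1 to 5 and 5233, 3869.7, 2137, 5055 and 1757 in KO 6 to 10 (log2 difference 2.55 ± 0.32, adjusted p = 0.000383). Slc13a2, a sodium-coupled citrate and dicarboxylate transporter, rose from 18.98 to 50.2 in WT to 122 to 209 in KO (log2 difference 1.93 ± 0.27, adjusted p = 0.000981), and Bex4 from 18.8 to 34.8 to 98.6 to 233 (log2 difference 1.92 ± 0.26, adjusted p = 0.000602). Pcp4l1, a small protein related to a calmodulin regulator, rose from 517 to 1601 to 3747 to 5176 (log2 difference 2.08 ± 0.35, adjusted p = 0.00331). The rest of the 12 largest rises among called genes whose groups do not overlap were Idi1, described with cholesterol synthesis, Gm4956 (1.73, adjusted p = 0.0118) and Smco2 (1.79, adjusted p = 0.018). The call of Smco2 was lost without WT 1 (adjusted p = 0.0506). A called gene whose groups overlap is not ranked here, even where its rise was larger.

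**Figure D2:**
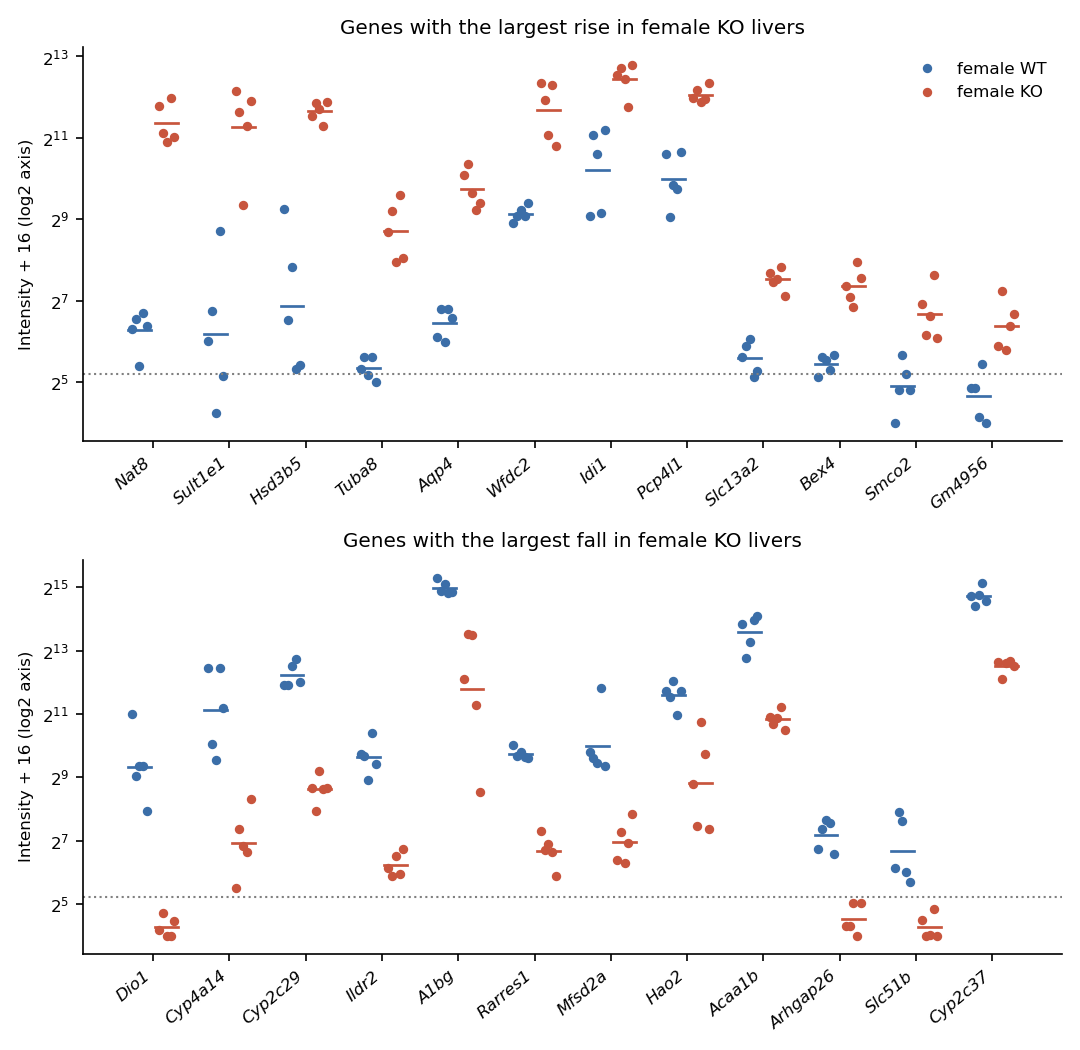
Intensity + 16 on a log2 axis in each of the 5 WT and 5 KO female livers for leading lower and higher genes. Each point is 1 array and each short line a mean on the log2 scale, with the detection threshold dotted. Only called genes whose WT and KO points do not overlap were drawn, so that separation is set by the choice of genes.

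The start regions of some of these genes hold a receptor half-site. The promoters of RefSeq (GRCm38.p6), from 250 bases before to 50 after each annotated start, were searched for AGGTCA on both strands. It was found in 20.2% of 124 promoters of lower genes and in 17.9% of 134 promoters of higher genes, against 13.3% of the 10296 promoters of tested genes and 16.3% of all 32851. Of the leading genes, 10 lower and 10 higher ones had a promoter in the table, and 5 and 4 of these held the half-site. The direct repeats AGGTCANAGGTCA (PPARα type), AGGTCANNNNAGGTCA (thyroid receptor and LXR type) and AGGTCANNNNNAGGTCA (retinoic acid receptor type) were present in 0.0396%, 0.0152% and 0.00913% of all promoters and in 0 promoters of called genes. These are exact letters in a short window, and a match is no evidence of binding. The stretches around the half-site of 3 leading lower and 3 leading higher genes show the letters found, read along the gene with the half-site, or its reverse complement TGACCT, in capitals:
Cyp2c29, chr19:39286891-39286976, plus strand: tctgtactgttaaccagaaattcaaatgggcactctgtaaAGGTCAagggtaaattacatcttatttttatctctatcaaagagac
Ildr2, chr1:166253993-166254078, plus strand: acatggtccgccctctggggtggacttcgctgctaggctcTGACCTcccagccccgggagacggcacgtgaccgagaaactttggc
A1bg, chr15:60921284-60921369, minus strand: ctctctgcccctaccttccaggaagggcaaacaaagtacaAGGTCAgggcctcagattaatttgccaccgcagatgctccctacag
Sult1e1, chr5:87591679-87591764, minus strand: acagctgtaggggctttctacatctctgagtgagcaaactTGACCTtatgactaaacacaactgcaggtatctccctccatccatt
Tuba8, chr6:121210612-121210697, plus strand: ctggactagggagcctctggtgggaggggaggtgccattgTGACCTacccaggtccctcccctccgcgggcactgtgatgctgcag
Wfdc2, chr2:164562670-164562715, plus strand: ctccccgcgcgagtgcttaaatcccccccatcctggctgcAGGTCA

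Of the 41 tested genes of a list of PPARα targets and fatty acid oxidation, 7 were lower, 0 were higher and 34 did not pass, where 1.09% of all genes were lower and 1.29% higher. These 2 shares are the background for the count of each list that follows. Lists and members were chosen with earlier results of these data known, so a count above these shares is a description and was not tested. The median log2 difference of the list was -0.39, against 0.004 for all genes, and 36 of the 41 differences were below 0. Beside Cyp4a14 and Acaa1b, the members that fell were Aldh3a2, an aldehyde dehydrogenase for fatty aldehydes (-1.29, adjusted p = 0.0129), Decr2, the peroxisomal dienoyl-CoA reductase (-1.22, adjusted p = 0.0049), Ech1 (-0.74, adjusted p = 0.00408) and Eci2 (-0.91, adjusted p = 0.0438), isomerases for unsaturated fatty acids, and Plin5, a lipid droplet protein of oxidative tissues (-1.14, adjusted p = 0.0225). Ech1 read 9869.5, 8066, 9422, 10525 and 11687 in WT 1 to 5 and 6259, 6474, 5934, 5859 and 5051 in KO 6 to 10, a modest fall with no overlap. Decr2 overlapped only through WT 4 and KO 9, whose values were 175 and 180.3.

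Other known PPARα targets did not pass. Ehhadh, the peroxisomal bifunctional enzyme, read 2154 to 2717 in WT and 2226 to 2516 in KO (log2 difference -0.03 ± 0.14, adjusted p = 0.968), and Fgf21, a fasting hormone of liver, had -0.84 (adjusted p = 0.471). Pdk4, which shuts glucose carbon out of oxidation, lay in the other direction: its KO livers, 253 to 477, were all above its WT livers, 63.9 to 241, but the test was not passed (log2 difference 1.36 ± 0.37, adjusted p = 0.0718). The number of members called lower ranged from 5 to 10 when single arrays were left out, and it was 6 without WT 4. Over the other alternatives it ran from 2 to 14. The call of Plin5 was lost without either of 2 arrays.

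**Figure D3:**
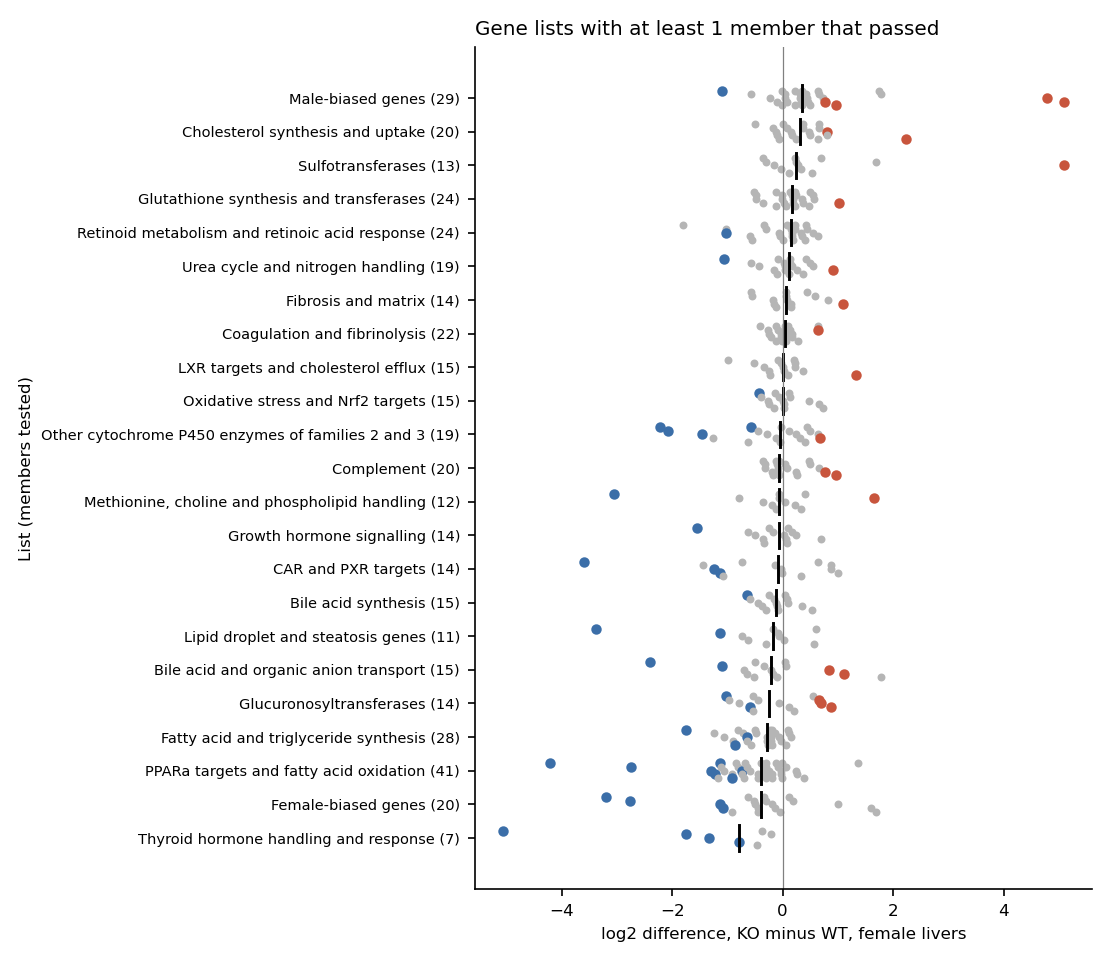
The log2 difference KO minus WT in female livers of each tested member of the gene lists with at least 1 member that passed. Each point is a gene, with members that passed in colour (red higher, blue lower), and the black mark is the median of the list. Points of the PPARα list lie mostly to the left of 0 (36 of 41), and those of the thyroid hormone list all do (7 of 7).

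All 7 tested genes of thyroid hormone handling and response lay below 0 in the KO livers, and 4 fell: Dio1, Thrsp, Hr and Gpd2. Thrsp, a nuclear protein that promotes lipid synthesis, read 1766, 4872, 4641, 2763 and 1405 in WT 1 to 5 and 790.3, 319.9, 847, 1677 and 898 in KO 6 to 10 (log2 difference -1.76 ± 0.42, adjusted p = 0.0344). KO 9 was within the range of the WT livers and the other KO livers were not. Hr, a corepressor of thyroid hormone receptors, was dim at 127, 62.03, 61.3, 36.95 and 31.2 in WT 1 to 5 and 12.5, 29.8, 7.37, 27.2 and -0.17 in KO 6 to 10 (log2 difference -1.34 ± 0.31, adjusted p = 0.0323), and Gpd2, the mitochondrial glycerol phosphate dehydrogenase, read 319 to 481 in WT and 157 to 291 in KO (log2 difference -0.79 ± 0.19, adjusted p = 0.0352). The list's median was -0.79. Only Dio1 was called whichever array was left out; the calls of Thrsp and Gpd2 were lost without any 1 of 7 arrays and that of Hr without any 1 of 6, and 2 members were lower without WT 4.

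Drug-metabolizing P450 enzymes that fell included members of the Cyp2c and Cyp2a families. Of 14 tested CAR and PXR targets 3 were lower and 0 higher, and of 19 other members of families 2 and 3, 4 were lower and 1 was higher, beside 1.09% and 1.29% of all genes. Cyp2c50 fell as Cyp2c37 did, from 18329.9 to 28915 to 4318 to 6465 (log2 difference -2.07 ± 0.24, adjusted p = 0.000175). Cyp2a5, the coumarin hydroxylase, read 22704, 13461, 17241, 18798 and 15078 in WT 1 to 5 and 5831, 5866, 8922, 6166 and 10845 in KO 6 to 10 (log2 difference -1.24 ± 0.20, adjusted p = 0.0031), and Cyp2a4, a testosterone hydroxylase that is nearly identical to it, read 8418 to 14362 in WT and 2991 to 7498 in KO (log2 difference -1.14 ± 0.23, adjusted p = 0.012). The probes of this pair may read both transcripts. Cyp2g1 (-1.46, adjusted p = 0.00298) and Cyp2a12, a further steroid hydroxylase (-0.57, adjusted p = 0.0182), also fell, and Cyp2d40 rose (0.68, adjusted p = 0.0323), a call that was lost without any 1 of 6 arrays.

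The genes most used as readouts of CAR and PXR did not pass. Cyp2b10, the CAR target, read 119, 483, 734, 124 and 389 in WT 1 to 5 and 188, 86.03, 83.7, 177 and 31.5 in KO 6 to 10 and overlapped between groups (log2 difference -1.45 ± 0.52, adjusted p = 0.209). Cyp3a11, the PXR target, read 22601, 17649, 19749, 19749 and 12078 in WT 1 to 5 and 10007, 10360.2, 11746, 18329.9 and 6568 in KO 6 to 10 (log2 difference -0.74 ± 0.24, adjusted p = 0.163), with KO 9 among the WT livers. Cyp2e1, which metabolizes ethanol, had medians of 37360 in WT and 35480 in KO (log2 difference -0.06 ± 0.11, adjusted p = 0.909).

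Conjugation genes changed in both directions. Of 14 tested glucuronidation genes, Ugt2b34 (-0.58, adjusted p = 0.0149) and Ugt1a1, the bilirubin transferase (-1.02, adjusted p = 0.0254), were lower, and Ugp2, which makes the sugar donor (0.88, adjusted p = 0.00459), Ugt3a2 (0.70, adjusted p = 0.0118) and Ugt3a1 (0.65, adjusted p = 0.0468) were higher. Ugt1a1 read 777, 479, 528, 706 and 441 in WT 1 to 5 and 377, 174, 286, 234 and 349 in KO 6 to 10, and its call was lost without any 1 of 4 arrays, that of Ugt3a1 without any 1 of 14. The calls of Ugt2b34, Ugt1a1 and Ugt3a1 were also lost in the fit on the 10 female arrays alone. Of 13 sulfotransferases only Sult1e1 passed. Of 24 genes of glutathione synthesis and transfer Gstm7 was higher (1.02, adjusted p = 0.00328), and of 15 genes of the oxidative stress list Gpx1, glutathione peroxidase, was lower (-0.42, adjusted p = 0.0377), a call lost without any 1 of 14 arrays.

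Of bile acid genes, 1 of synthesis and 4 of transport passed. Of 15 tested synthesis genes only Cyp2c70, which makes muricholic acids in mice, was lower, at 20514 to 27854 in WT and 10932 to 19014 in KO (log2 difference -0.64 ± 0.15, adjusted p = 0.037), and 10 arrays each cost the call when left out. The rate-limiting enzyme Cyp7a1 read 5902, 6129, 3023, 3129 and 5183 in WT 1 to 5 and 4827, 2433, 3107, 3372 and 5090.4 in KO 6 to 10 (log2 difference -0.30 ± 0.37, adjusted p = 0.845), and Cyp8b1, which sets the share of cholic acid, had 0.53 (adjusted p = 0.136). Cyp27a1 (-0.38, adjusted p = 0.463) and Cyp7b1 (0.05, adjusted p = 0.983), of the alternative route, did not pass. Of 15 transporters, Slc51b and Abcc3, both basolateral exporters, were lower, and Slco1a4 and Slc22a7, uptake carriers for organic anions, were higher. Abcc3 read 1054, 958, 1212, 1467 and 1311 in WT 1 to 5 and 412, 730.1, 502, 513 and 627 in KO 6 to 10 (log2 difference -1.10 ± 0.18, adjusted p = 0.00309), with no overlap. Slco1a4 read 353, 266, 415, 126 and 331 in WT 1 to 5 and 536, 532, 669.5, 606 and 809 in KO 6 to 10 (log2 difference 1.12 ± 0.25, adjusted p = 0.0254), a call lost without either of 2 arrays, and Slc22a7 (0.84, adjusted p = 0.0284) lost it without any 1 of 4. Neither the canalicular bile salt pump Abcb11 (-0.49, adjusted p = 0.268) nor the uptake carrier Slc10a1 (-0.21, adjusted p = 0.808) passed, and of 8 genes of the FXR axis none was called.

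Genes of fatty acid synthesis were lower where they changed, and 3 of 28 tested members passed: Thrsp and the elongases of polyunsaturated fatty acids Elovl5 and Elovl2. Elovl5 read 24559, 19832, 24132, 21928 and 26251 in WT 1 to 5 and 15979, 17433, 16158, 10663 and 14937 in KO 6 to 10 (log2 difference -0.65 ± 0.15, adjusted p = 0.0338), and Elovl2 read 4553, 3356, 3949, 4184 and 3713 in WT 1 to 5 and 1878, 2932, 2707, 1278 and 2458 in KO 6 to 10 (log2 difference -0.86 ± 0.21, adjusted p = 0.0436). The groups did not overlap, but the calls were lost without any 1 of 7 and of 12 arrays, and between 0 and 3 members of the list passed when single arrays were left out. Srebf1, the master regulator of the pathway, read 317, 456, 320.3, 605 and 145 in WT 1 to 5 and 81.97, 109.7, 209, 92.1 and 219 in KO 6 to 10 (log2 difference -1.25 ± 0.41, adjusted p = 0.169), and Fasn, fatty acid synthase, read 97.9, 169, 183, 221 and 46.6 in WT 1 to 5 and 23.4, 30.1, 80.00, 79.3 and 76.5 in KO 6 to 10 (log2 difference -1.07 ± 0.35, adjusted p = 0.152). Both were lower in mean and overlapped. Scd1 (-0.21, adjusted p = 0.81), Elovl6 (-0.04, adjusted p = 0.974) and Pnpla3 (-0.90, adjusted p = 0.637) did not pass, and Pnpla3 varied from 348 to 3154 within the WT livers alone.

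Cholesterol synthesis lay in the other direction. Of 20 tested genes 2 were higher and 0 were lower, and 15 of the 20 differences were above 0, with a median of 0.31. Idi1, the isomerase of the isoprenoid units, read 523, 2130.2, 1528, 553 and 2319.8 in WT 1 to 5 and 5988, 6717, 5577, 3466 and 7084 in KO 6 to 10 (log2 difference 2.24 ± 0.42, adjusted p = 0.00759). Its WT livers fell into low values in WT 1 and WT 4 and higher ones in the others, all below the lowest KO liver. Nsdhl, which removes methyl groups from sterols, read 458 to 613 in WT and 604 to 1329 in KO (log2 difference 0.80 ± 0.18, adjusted p = 0.0254), a call lost without any 1 of 6 arrays. The count of members called ranged from 1 to 4 over single arrays left out, and 4 passed without WT 4. Over the other alternatives it ran from 0 to 6. Of 15 LXR targets only Apoa4, an apolipoprotein of triglyceride-rich particles, was higher, at 12398, 10036, 9368, 7662 and 10133 in WT 1 to 5 and 24893, 34748, 23106, 25909 and 17241 in KO 6 to 10 (log2 difference 1.32 ± 0.21, adjusted p = 0.00209), while Abca1 (0.10, adjusted p = 0.919), Abcg5 (-0.23, adjusted p = 0.812) and Abcg8 (0.37, adjusted p = 0.818), the sterol exporters, did not pass. The median over the LXR list was 0.01.

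Genes that differ between the sexes were among those that changed. Of 29 tested genes that are higher in male mouse liver 4 rose in the female KO livers, Hsd3b5, Nat8, C8b and Susd4, and 1 fell, Nudt7. Of 20 tested genes that are higher in female liver 4 fell, A1bg, Hao2, Cyp2a4 and Abcd2, and 0 rose, beside 1.29% of all genes higher and 1.09% lower. The medians were 0.34 for the male-biased and -0.39 for the female-biased list, beside 0.004 for all genes. C8b, a component of the membrane attack complex and with Susd4 also 1 of the 2 higher genes among 20 of complement, read 1646, 3214, 1979, 2079 and 1545 in WT 1 to 5 and 3033, 4311, 3735, 3060.1 and 3190.4 in KO 6 to 10 (log2 difference 0.76 ± 0.19, adjusted p = 0.0399), but its call was lost without any 1 of 13 arrays. Abcd2, a peroxisomal transporter of long fatty acids, read 107, 71.8, 150.1, 57.9 and 100.4 in WT 1 to 5 and 37.6, 24.4, 35.2, 63.8 and 25.1 in KO 6 to 10 (log2 difference -1.08 ± 0.24, adjusted p = 0.0241). Its KO 9 liver lay within the WT range, and the call was lost without any 1 of 6 arrays. The Abcd2 call was also lost with the 10 female arrays alone and with the mean of all detected probes of a gene. A second Abcd2 probe of similar brightness differed by only -0.25 ± 0.24 on the log2 scale. Its mean intensity over all arrays was 43.4, against 44.6 for the probe used. Susd4, a complement regulator, was near the detection level, with KO livers at 29.2, 25.8, 6.53, 15.5 and 11.5 and no WT liver detected (log2 difference 0.97 ± 0.22, adjusted p = 0.0254). Only 2 KO livers reached that level, so no fold is given, and the call was lost without any 1 of 5 arrays, without each of which 0 complement genes were called. Nudt7, a peroxisomal CoA hydrolase, went against the list, at 12744, 18962, 17040.4, 16596 and 9930.2 in WT 1 to 5 and 5669, 8720.2, 8047, 6568 and 5872 in KO 6 to 10 (log2 difference -1.09 ± 0.18, adjusted p = 0.00272). Over single arrays left out, between 2 and 6 male-biased genes were higher and 3 or 4 female-biased genes were lower. Over the other alternatives these counts ran from 2 to 8 and from 0 to 5. The 7 tested major urinary proteins and lipocalins all lay above 0, with a median of 0.42, and 0 passed. Probes of the major urinary proteins may read more than 1 member, so these are not separate observations.

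Male levels of these genes are given for scale, without a test. Male livers read 13660 in WT and 15640 in KO for Hsd3b5 on average, against 3239 in the female KO livers. Nat8 averaged 2745 in female KO livers, and male livers read 1898 in WT and 4615 in KO. For A1bg the female KO mean was 6106, and male livers averaged 26.4 in WT and 0.59 in KO. Hao2 was below the detection level in male livers and averaged 662 in female KO livers.

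**Figure D4:**
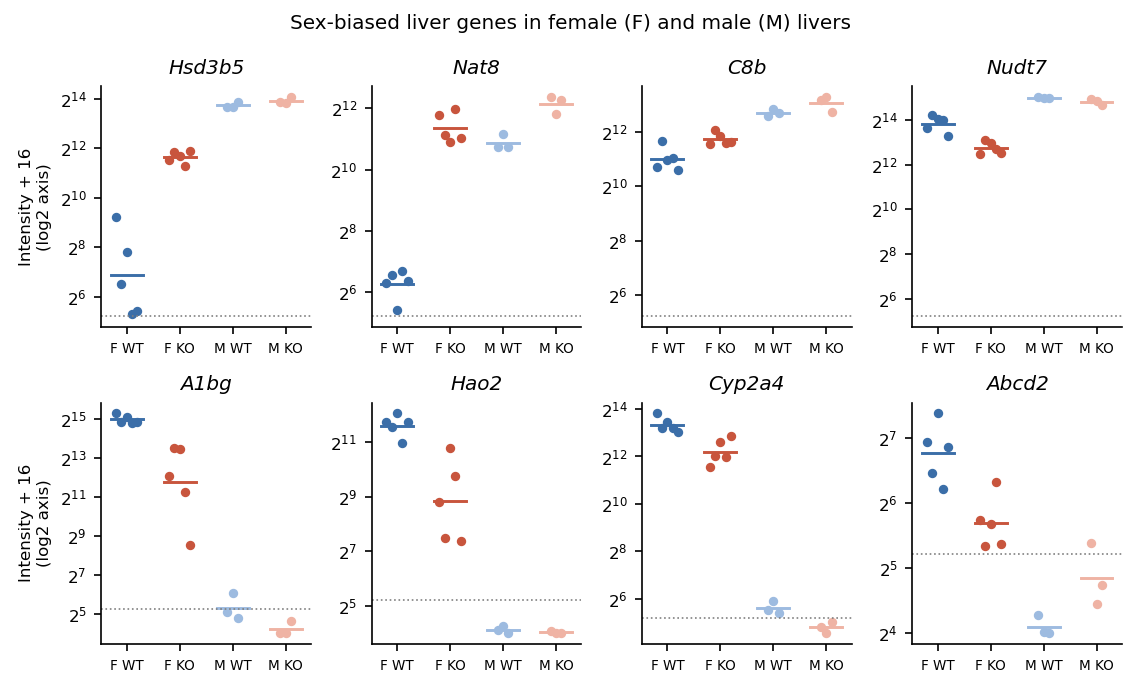
Intensity + 16 on a log2 axis for sex-biased liver genes in 5 female WT (F WT), 5 female KO (F KO), 3 male WT (M WT) and 3 male KO (M KO) livers, 1 point per array. The dotted line is the detection threshold, an intensity of about 21. Short lines are means on the log2 scale. Female KO points of Hsd3b5 and Nat8 lie above the female WT points, and those of A1bg and Hao2 lie below the female WT points.

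Single members of other lists passed, beside 1.29% of all genes higher and 1.09% lower. Plin5 and Ildr2 were the 2 lower members of 11 lipid droplet genes. In the urea cycle and nitrogen list of 19 genes Oat, ornithine aminotransferase, was higher at 15506, 9422, 12179, 18329.9 and 15279 in WT 1 to 5 and 32231, 23699, 23939, 23445 and 28207 in KO 6 to 10 (log2 difference 0.92 ± 0.18, adjusted p = 0.0125), and Prodh, which starts the breakdown of proline, was lower at 2578, 3063, 3372, 3599.95 and 2098 in WT 1 to 5 and 1324, 1319.8, 1259, 1613 and 1391 in KO 6 to 10 (log2 difference -1.06 ± 0.18, adjusted p = 0.00331). Of 12 genes of methionine, choline and phospholipid handling Mfsd2a was lower, and Csad, the decarboxylase of taurine synthesis, was higher at 2365, 878, 765, 2570.1 and 1829 in WT 1 to 5 and 3148, 7579, 4736, 2623 and 7892 in KO 6 to 10 (log2 difference 1.65 ± 0.36, adjusted p = 0.022), a call lost without any 1 of 4 arrays. Igfbp2, a binding protein for insulin-like growth factors, was lower (log2 difference -1.56 ± 0.38, adjusted p = 0.0397) with WT 4 far under the other WT livers, a call lost without any 1 of 14 arrays. Rdh16, a retinol dehydrogenase, was the only 1 of the 24 tested in the retinoid list that passed, at 1008 to 1872 in WT and 507 to 1038 in KO (log2 difference -1.02 ± 0.21, adjusted p = 0.0162). Its groups overlapped, and its call was lost in the fit on the 10 female arrays alone. Retsat, retinol saturase, was not in that list and was also called lower, as given in the last paragraph. The retinoic acid targets Cyp26a1 (-0.55, adjusted p = 0.362) and Rarb (0.54, adjusted p = 0.182) did not pass. Pros1, the anticoagulant protein S, was higher (log2 difference 0.64 ± 0.12, adjusted p = 0.00784), as was Timp1, an inhibitor of matrix proteases, which was detected in 0 WT and all 5 KO livers, at 11.95, 15.3, -1.53, 6.17 and 5.44 in WT 1 to 5 and 32.1, 26.6, 37.1, 43.4 and 28.8 in KO 6 to 10, at least 1.58-fold higher (log2 difference 1.09 ± 0.24, adjusted p = 0.0226) and was not called without any 1 of 3 arrays.

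No member passed in 13 other lists, which cover ketogenesis, the FXR axis, nuclear receptors and corepressors, glucose metabolism, amino acid synthesis, endoplasmic reticulum stress, acute phase response, the circadian clock, immediate early genes, the cell cycle, iron handling, chemokines and vitamin D. Asns, asparagine synthetase, was higher in every KO liver than in any WT liver and did not pass (log2 difference 1.04 ± 0.46, adjusted p = 0.362), with KO 7 at 146 and the other KO livers at 49.8 to 59.4. Igfbp1, a fasting- and stress-responsive binding protein, read 165, 255, 149, 2599 and 289 in WT 1 to 5 and 838, 1054, 645, 656 and 5266 in KO 6 to 10 (log2 difference 1.67 ± 0.68, adjusted p = 0.297). WT 4 and KO 10 were far above the rest of their groups, and without WT 4 the difference was 2.38 and passed (adjusted p = 0.0216).

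Markers of cells other than hepatocytes were also tested, for cholangiocytes, stellate cells, macrophages, endothelium, lymphocytes, neutrophils and erythroid cells, and none was called. The Kupffer list summed to between 6678 and 21570 in WT and between 7672 and 10700 in KO. The top WT sum was that of WT 2, and the next was 10950 in WT 3. Of the 12 tested Kupffer markers 11 lay below 0, with a median log2 difference of -0.23. Cholangiocyte markers were somewhat higher in KO, with sums of 402.2 to 751 (median 513.9) against 170.5 to 477.5 (median 324.3) in WT and a median log2 difference of 0.74 over 3 tested genes. Krt19, Epcam, Cldn4 and Cftr, which define these cells, were not detected on any female array. The part of these cells in the rise of any gene was not tested. The exocrine pancreas list had 1 called member, Amy2a5 (0.63, adjusted p = 0.0177), an amylase whose probe may also read the liver amylase Amy1. That call was lost without KO 6 (adjusted p = 0.0573) and with the 10 female arrays alone. Cpa1, Ctrb1, Cela3b, Try4 and Cel of that list were not detected on any female array.

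The differences of the same contrast in males come from other arrays than the female ones. The spread of each gene was estimated over the arrays of both sexes together, so the calls in females and males are not independent of each other. In male livers 91 genes were higher (0.919%) and 64 lower (0.646%), from 3 arrays per genotype. Of the 236 genes called in females 212 had the same sign in males, 89.83%, against 52.55% of all genes tested. In all 70 genes were called in both sexes in the same direction, 29.66% of the female and 45.16% of the male calls, 33 of them higher and 37 lower, and 0 were called in opposite directions. Cyp2c29 differed by -3.97 (adjusted p = 0.000175) in males, Ildr2 by -2.80 (adjusted p = 0.000287), Rarres1 by -3.50 (adjusted p = 0.000106), Acaa1b by -2.84 (adjusted p = 0.000146) and Mfsd2a by -4.19 (adjusted p = 0.00079). The list of PPARα targets had a median of -0.30 in males and that of thyroid hormone response -0.89. Fatty acid synthesis had a median of 0.23 in males and -0.28 in females, and the difference between these was not tested.

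**Figure D5:**
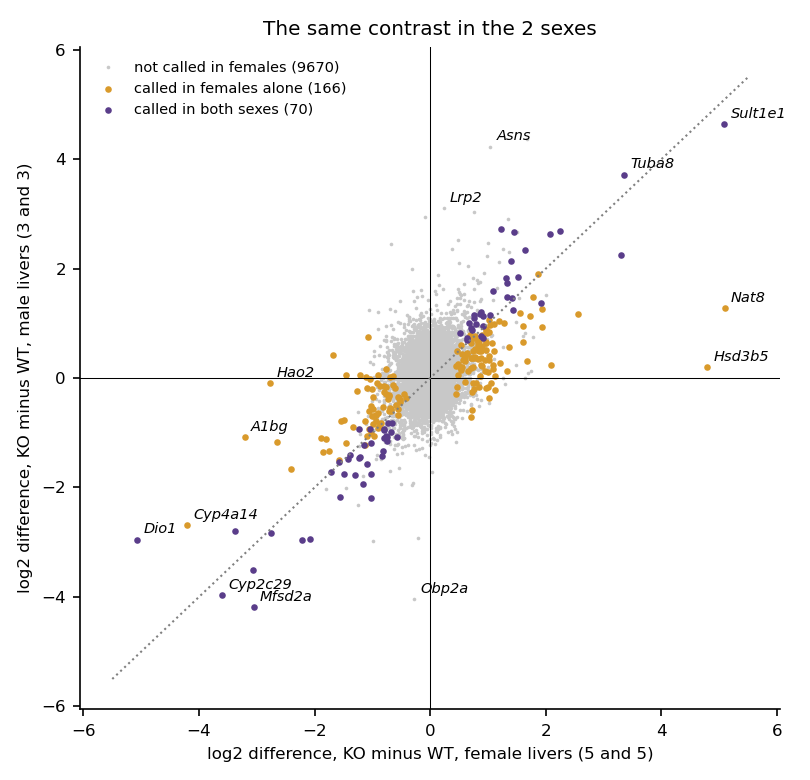
The log2 difference KO minus WT in female livers (5 and 5 arrays) against that in male livers (3 and 3 arrays) for each of the 9906 genes tested. Genes called in both sexes lie either below 0 in both (37) or above 0 in both (33).

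A test of the interaction asked where the deletion acted differently in females and males, and 9 genes passed (0.0909%), 5 with the female difference above the male one and 4 below. Of these only Nat8 and Prom2 were also called in females. For Nat8 the female difference exceeded the male one by 3.82 ± 0.42, adjusted p = 0.000295. WT livers averaged 64.5 in females and 1898 in males. Prom2, a membrane glycoprotein of epithelial protrusions, read 47.4, 24.4, 31.7, 37.9 and 37.95 in WT 1 to 5 and -5.71, -12.6, -1.01, -1.93 and -4.54 in KO 6 to 10 in females (log2 difference -1.68 ± 0.19, adjusted p = 9.76e-05), at least 1.67-fold lower, and was not above background in males. Its interaction was -2.11 ± 0.30, adjusted p = 0.00827. All 5 female KO values of Prom2 were below 0 and were set to 0, so that group has no spread on the log2 scale. The standard errors and p-values of Prom2 are therefore partly set by this floor. Over the alternatives its female difference ran from -3.29 to -0.74. Il27ra, a cytokine receptor subunit, was higher in all KO than in all WT females without passing (0.42, adjusted p = 0.17), and its interaction was 1.35 ± 0.23, adjusted p = 0.0367. In males only 1 WT array was above the detection level for Il27ra and none for Prom2, so the size of these interactions is not well measured. The other 6 genes, Obp2a, Elovl3, Mtnr1a, Lrp2, Gria3 and Grm8, were detected on 0 of the 10 female arrays, so only male values of these lay above background. The interaction of Hsd3b5 was 4.59 ± 0.89, adjusted p = 0.0818, and that of Asns, whose male difference was 4.23 (adjusted p = 0.00142), was -3.19 ± 0.76, adjusted p = 0.237. The count of genes that passed ranged from 3 without male WT 3 to 9, with 4 without any 1 of KO 7, KO 8, KO 10 or WT 3 of the females or WT 2 of the males and 5 without male KO 4, and Prom2 was called in females under each single array left out.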

How the data were processed

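Total RNA of mouse liver (Trizol extraction, with biotin-labelled cRNA made by a MessageAmp kit) went onto 16 Illumina arrays (mouse Ref-6 v2), 1 per sample. The deposited intensity values are on a linear scale. By the values themselves the authors' files are background-subtracted and quantile normalized, the submitters' processing notes name lumi without a version, and the background method is not given in the sources used here. Quantile normalization gives all arrays the same distribution, so a median difference near 0 over all genes (0.004) is partly set by the processing. A second table of non-normalized signals has 32 columns that match no sample label and was not used, so neqc and a block for slide were not run.

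Groups and replicate numbers came from the labels. Negative values were replaced by 0 and the analysis scale was log2(value + 16). The negative values of an array gave its background as their root mean square, and detection meant a value over 3 times that. The platform annotation ties 34885 of the 45281 probes to a single gene, 18 to more than 1 and 10378 to no gene. Those of a single gene detected on at least 3 of 16 arrays (14946) were kept, and the brightest stood for each of 9906 genes of the 19057 with a probe. Tests used limma 3.58.1 in R 4.3.3, with 1 mean for each of 4 groups over 16 arrays (12 residual and 4.03 prior degrees of freedom, median residual SD 0.321) and Benjamini-Hochberg adjustment at 0.05; the study states no test for this contrast. Nothing in the labels says whether the samples of a group are separate animals of separate litters, so p-values measure the spread between these samples. "At least" folds set the brighter group's mean against the detection threshold, or the dim value where higher, and carry no offset. The script was tested on simulated data.

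Genes named are the RXR genes, the 12 with the largest differences each way among called genes whose groups do not overlap, up to 5 called members of each gene list and its defining genes, and the interaction genes. Members and lists were chosen with earlier results of these data known. List counts and medians are descriptions without a test. Promoters came from RefSeq (GRCm38.p6). Alternatives were other offsets, filters, probe rules, fits and tests and leaving out each array.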

Additional observations from a re-analysis of the deposited data

Results flagged for a closer look

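Of 198 groups of 5 livers examined for the named genes, 13 held an array whose gap to its nearest neighbour was too large a share of the group's range for Dixon's test, where chance gives about 1 in 20. Female WT 4 was the array in 4 of them. It read 3617 for Mfsd2a where the other WT livers read 634.9 to 867.7, 2599 for Igfbp1 (others 149.1 to 289.3), 657.7 for Igfbp2 (others 1791 to 2244) and 3.469 for Susd4, where the others were below 0 and all were below the detection level. Female WT 2 read 6.69 for Fgf21 (others 60 to 101.3) and 4967 for Cyp8b1 (others 6634 to 7418). Among KO livers, KO 7 read 4408 for Cyp2c37 (others 5893 to 6557) and 145.9 for Asns (others 49.82 to 59.39), KO 8 read 72.76 for Slc10a1 (others 129.7 to 154.7), and KO 10 read 5266 for Igfbp1 (others 645.1 to 1054). The remaining flags lie below the detection level and have no order: 13.58 for Obp2a in KO 8, 4.172 for Lrp2 in WT 1 and -1.41 for Gria3 in KO 9.

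The deletion's effect differed between the sexes, by the interaction test at an adjusted p under 0.05, for 9 genes. The female minus male difference in log2 was 3.82 for Nat8, 3.76 for Obp2a, 2.70 for Elovl3, 1.74 for Mtnr1a and 1.35 for Il27ra, and it was -2.88 for Lrp2, -2.11 for Prom2, -1.99 for Gria3 and -1.51 for Grm8. All of these but Nat8 include a sex in which the gene was near or below the detection level, so their sizes are not well measured.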

How the results depend on the processing

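None of the 65 called genes that the naming rule gives turned its direction under any alternative or with any array left out; other called genes in the text were not followed singly. The 128 higher and 108 lower genes became 73 and 64 in a fit on the 10 female arrays alone, 39 and 43 in an equal-variance test of the 5 KO against the 5 WT arrays after Benjamini-Hochberg adjustment, and 280 and 269 in that test at an unadjusted p under 0.1 and a fold above 1.5; the other alternatives gave 96 to 166 and 85 to 157. Unadjusted p-values under 0.05 in the main fit numbered 654 and 571. With single arrays left out the higher genes numbered 81 to 133 and the lower genes 80 to 108. Of the 236 calls, 76 were kept in the equal-variance test after adjustment, 130 with the female arrays alone and 154 to 224 with 1 array left out, and 0 were called in the opposite direction. The 9 interaction genes became 42 with arrayWeights and 5 with an offset of 4, and 3 to 9 with single arrays left out; 854 had an unadjusted p under 0.05. Of the 65 called genes named by the rule given with the processing, 23 kept the call in every alternative, 39 in every alternative but the equal-variance test after adjustment, and 43 whichever array was left out. No paired analysis was possible because WT 1 to 5 and KO 6 to 10 share no replicate numbers. Probes near or below the detection level give bounds only.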

Other observations

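Other gene families were looked at after the values were seen, so their counts are descriptions. For each family count here and in the next paragraph, the background is 1.29% of all tested genes higher and 1.09% lower. Of all tested genes 50.58% lay above 0. Histone genes picked by their symbols, mostly of the replication-dependent kind, lay mostly above 0 in the female KO livers. That kind packages newly made DNA, and its messages usually lack a poly(A) tail. The symbol rule may also take in linker histones that are not replication-dependent. Of 40 tested, 37 had a positive log2 difference, with a median of 0.49, and 11 were called higher and 0 lower, while in males the median was 0.20 and 1 was called higher. H4c8 read 232, 319, 267, 186 and 229.9 in WT 1 to 5 and 527, 528, 396, 772 and 409 in KO 6 to 10 (log2 difference 1.03 ± 0.20, adjusted p = 0.0118). No gene of the cell cycle list was called. The sequences of these genes are near-identical and their probes may share transcripts. Relatives of Nat8 rose as well, since Nat8f2 differed by 0.88 (adjusted p = 0.00105) and Nat8f4 by 0.92 (adjusted p = 0.000916), out of 4 tested genes of the family, whose sequences are also alike.

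Other called genes that none of the lists held are given here, also picked after the values were seen. Retsat, retinol saturase, read 7617, 3076, 3239, 11073 and 7294 in WT 1 to 5 and 1523, 1771, 1414, 1394 and 1754 in KO 6 to 10 (log2 difference -1.86 ± 0.29, adjusted p = 0.00214). Ces1g (-1.80, adjusted p = 0.00408) and Ces1e (-1.17, adjusted p = 0.0158), carboxylesterases that cleave lipid and drug esters, were the 2 called among 11 tested, and Fmo5, a flavin monooxygenase, fell too (-1.39, adjusted p = 0.00209). Gas6, a ligand of TAM receptors, read 639 to 1238 in WT and 159 to 359.5 in KO (log2 difference -1.49 ± 0.23, adjusted p = 0.00198). Slc22a28 (0.74, adjusted p = 0.00846) and Slc22a30 (0.78, adjusted p = 0.00337), organic anion transporters, were higher beside Slc22a7, out of 9 tested members of the family. Cd83, known as a marker of activated dendritic cells and lymphocytes, read 19.9, 47.4, 47.02, 18.5 and 45.3 in WT 1 to 5 and 132, 129, 137, 159.6 and 119 in KO 6 to 10 (log2 difference 1.60 ± 0.20, adjusted p = 0.000415).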
